A study of Verbena bonariensis with 6 samples.

Results

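C2H2 zinc fingers fold around a zinc ion held by paired cysteines and histidines, and most of these proteins bind DNA or RNA through such fingers. Plants use them in the patterning of roots and leaves, in flowering, in tolerance of acid soil and in transcription by RNA polymerase III. Described here are the C2H2 clusters of a leaf transcriptome of Verbena bonariensis that are not of the ZAT, AZF or ZPT type, the short EAR-motif repressors best known from stress responses. A cluster is a numbered unit, listed as a gene, into which the authors grouped assembled transcripts. Members were the clusters whose only family in the deposited table of transcription regulators was C2H2 and whose best protein matches did not carry those names. They were 528 of the 9740 clusters in 80 families, while 33 other C2H2 clusters were ZAT-type. The 528 members shared 170 best matches in the NR protein database, and 119 had no best match. A protein domain with C2H2 in its name was listed for 461 of them, another domain for 39 and none for 28.

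Leaves came from seedlings of the strain Finesse, 3 months old, grown in a greenhouse under a 16 h photoperiod at 25°C by day and 16°C by night. The control group (L) had 3 libraries from plants left untreated. The cold group (T) had 3 libraries from plants that spent 24 h at 4°C before a further 4 h at -4°C. Each group was described as 3 biological replicates, and the whole leaf was extracted, so that fewer cells of a type and less RNA per cell cannot be told apart. The comparison asks which of these zinc fingers differ in transcript level between cold-treated and untreated leaves.

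The table held 991180 to 1213366 estimated counts per control library and 722556 to 791041 per cold library. These were 5.85% to 5.86% of the reads of a control library and 5.52% to 5.53% of those of a cold library, by whole-library totals worked out from counts, FPKM and length. The members took 2.81% to 2.87% of the table's counts in control and 2.72% to 2.77% in cold. Leaf identity genes were present in both groups. Summed FPKM (fragments scaled to cluster length and library size) of 31 clusters matched to GLK1 or GLK2, which drive chloroplast development, averaged 124 in control and 106.5 in cold, and that of 27 matched to YABBY 1, 2 or 5 averaged 36.0 and 58.7. The flower search took 51 clusters, summing to 63.0 and 127 FPKM, but most were AGAMOUS-like MADS proteins, a name also borne by genes that act outside the flower. The 3 of them named for DEFICIENS or as floral homeotic AGAMOUS-like, none at 0 in every library, summed to 1.89 and 0.253 FPKM, and no cluster carried the root names searched. The part of these shifts in the results below was not tested.

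The unit of level is normalized CPM, a cluster's counts as a rate of the summed counts of all clusters tested in that library, once scaled by edgeR's TMM factor. A second unit, whole-library CPM, sets the counts against all reads of the library and was used for sums over groups of members. Reads of one gene can be split between clusters that share a best match, and 343 members had fractional counts, so each result was read by cluster and again with counts summed by best match. The sums were scaled in a fit of their own, so the levels of a sum and of its clusters are close but not on the same scale.

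Both directions occurred. Log2 fold changes of cold over control are given ± SE and group means ± SD, with n = 3 libraries per group. Of the 528 members, 202 had enough counts to be tested, and 31 were higher and 38 lower in the cold libraries. A call here is an adjusted p below 0.05 from the quasi-likelihood test of edgeR. That is 15.3% and 18.8% of the members tested, beside 21.9% higher and 23.6% lower of all 5004 clusters tested. Summed by best match, with the clusters without one kept alone, 128 of 289 were tested, of which 36 were higher and 37 lower. That is 28.1% and 28.9%, beside 34.6% and 37.7% of all 2297 tested. The median log2 fold change of the members was -0.28 by cluster and -0.15 by best match, beside -0.14 and -0.08 over all tested. Whether called or not, groups did not overlap in 112 of the 202 member clusters tested (55.4%) and in 79 of the 128 best matches (61.7%), beside 63.9% and 77.8% of all tested. Among these were all 69 called clusters and 69 of the 73 called best matches.

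The scale mattered for small changes. The table as a whole held a smaller share of each cold library, and with whole-library totals in place of TMM factors the median over all best matches tested moved from -0.08 to -0.44 on the log2 scale. Of the called best matches among the members, 49.3% were higher under TMM and 29.8% under whole-library totals, with 25 higher and 59 lower. Of all called best matches in the table, 47.9% were higher under TMM and 37.1% under whole-library totals. Changes are reported below relative to the table. Of the changes reported, those called on either scale that change sign with this choice are marked where they stand. Best matches not described below changed sign as well. XP_004141684.2, for example, was at 0.05 under TMM and at -0.32, called lower, under whole-library totals. Leaving out 1 library at a time ended 14 of the 73 calls in at least 1 of 6 fits, and 59 were called in all 6.

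**Figure D1:**
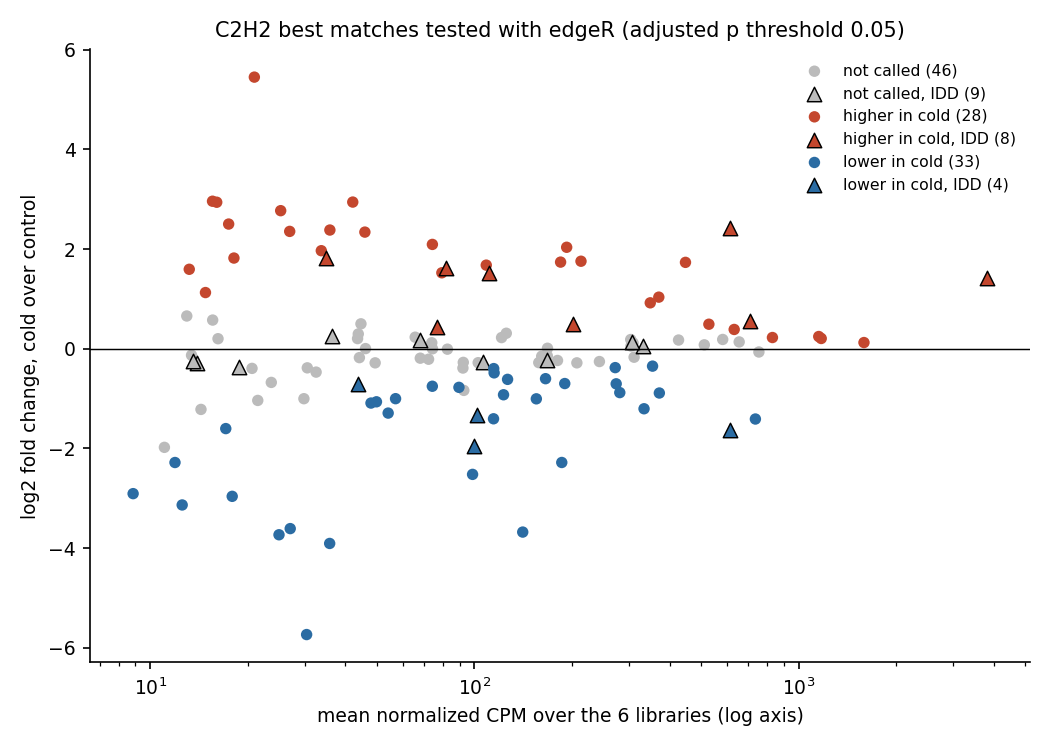
Log2 fold change (cold over control, vertical axis) against the mean normalized CPM over the 6 libraries (horizontal log axis) for the 128 best matches tested, with triangles for the indeterminate domain (IDD) factors. Of the 36 higher in cold 8 were IDD factors, and of the 37 lower in cold 4 were. The triangle farthest to the right is the JACKDAW-like best match, at a log2 fold change of 1.42 ± 0.03 (SE).

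The indeterminate domain (IDD) factors were the largest named group, with 80 clusters in 31 best matches. IDD proteins are plant-specific. In Arabidopsis, JACKDAW, MAGPIE and NUTCRACKER work with SHORT-ROOT and SCARECROW in the root ground tissue, and SHOOT GRAVITROPISM 5 is needed for the upward bending of shoots. Of the 21 best matches tested, 8 rose and 4 fell, beside 34.6% and 37.7% of all best matches tested. The median log2 fold change of the 21 was 0.14. By cluster, 43 were tested, of which 8 rose and 6 fell. Summed over all 80 clusters, the group reached a whole-library CPM of 350.2, 360.3 and 361 in control and 476, 472 and 488 in cold. The libraries of the 2 groups did not overlap, and an exact two-sided permutation test gave p = 0.1, the smallest that 3 against 3 allow. The JACKDAW-like best match XP_011094681.1 rose by more than the group as a whole, while of the other IDD best matches some rose and some fell. Its 7 clusters had a whole-library CPM of 133, 133 and 135 in control and 275, 274 and 280.4 in cold. The other 73 IDD clusters, a split made after the values were seen and not tested, had 218, 227 and 226 in control and 201, 198 and 208 in cold, lower in each cold library.

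With clusters without a match left aside, the JACKDAW-like best match XP_011094681.1 had the highest sum of all the best matches, in normalized CPM and in FPKM alike. Its sums were 2070.1, 2065 and 2099 normalized CPM in the control libraries and 5476, 5551 and 5608 in the cold libraries. All 3 cold libraries lay above the control ones (log2 fold change 1.42 ± 0.03 (SE), adjusted p = 2.49e-09 in edgeR's quasi-likelihood test). Per length, the 7 clusters summed to 87.5 ± 0.955 FPKM in control and 177 ± 3.26 FPKM in cold. Of the 7, 4 rose and 3 had too few counts to be tested. Cluster-14918.104308 rose by 1.42 ± 0.08 and Cluster-14918.136521 by 1.88 ± 0.31 on the log2 scale. Cluster-14918.136517 held 60.2% to 62.6% of the sum in control and 48.5% to 50.9% in cold, and rose by 0.97 ± 0.05 on the log2 scale. Cluster-14918.113679, which held 9.77% to 12.1% of the sum in control and 15.8% to 22.3% in cold, rose by 2.16 ± 0.15.

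SHOOT GRAVITROPISM 5-like had the largest rise of the IDD factors. Its best match XP_011083211.1 stood at 187, 191 and 198 normalized CPM in the control libraries and 941, 1023 and 1134 in the cold libraries. The groups were far apart and the cold libraries were the more spread (log2 fold change 2.43 ± 0.08 (SE), adjusted p = 5.86e-08 in edgeR's quasi-likelihood test). Nearly all of this lay in Cluster-14918.152829, which held 93.6% to 100% of the sum in control and 88.7% to 97.4% in cold and averaged 6.16 FPKM in control and 24.8 FPKM in cold. JACKDAW (XP_011089318.1), with Cluster-14918.100388 alone, was at 564, 561 and 592 in control and 861, 839 and 843 in cold. The rise was small beside the others and the groups did not overlap (log2 fold change 0.57 ± 0.05 (SE), adjusted p = 1.41e-05 in edgeR's quasi-likelihood test). With whole-library totals it was 0.20 and was still called.

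Further rises were found at lower levels. MAGPIE (XP_011079920.1) was at 35.9, 36.8 and 46.7 normalized CPM in the control libraries and 122, 109 and 139.6 in the cold libraries, without overlap (log2 fold change 1.63 ± 0.20 (SE), adjusted p = 0.000138 in edgeR's quasi-likelihood test). MAGPIE-like (XP_011082585.1) rose from 15.3 ± 1.17 to 54.3 ± 12.1 normalized CPM (SD, n = 3). For the NUTCRACKER-like best match XP_011083713.1 the sums were 59.9, 54.8 and 56.2 in control and 169, 147 and 176 in cold, again without overlap (log2 fold change 1.53 ± 0.14 (SE), adjusted p = 3.02e-05 in edgeR's quasi-likelihood test). None of its 4 clusters was called alone, and their shares differed between libraries of the same group. Cluster-14918.87054 held 25.6, 82.6 and 80.4% in control and 33.2, 1.48 and 61% in cold. A further NUTCRACKER-like best match, XP_011074522.1, rose from 167 ± 11.2 to 236 ± 35.2, with a log2 fold change of 0.50 ± 0.13 that whole-library totals lowered to 0.13, no longer called. The call of the other riser, an IDD 2-like match of Erythranthe guttatus (XP_012845838.1) at 0.44 ± 0.16, was lost without any 1 control library or any 1 cold library, at 0.40 to 0.48, and with whole-library totals, at 0.08.

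Other best matches named after NUTCRACKER fell. XP_010244313.1, a Nelumbo nucifera protein, stood at 862, 1017 and 906 normalized CPM in the control libraries and 346, 269.9 and 289 in the cold libraries. The lowest control library was far above the highest cold library (log2 fold change -1.62 ± 0.10 (SE), adjusted p = 2.52e-06 in edgeR's quasi-likelihood test). Its main cluster, Cluster-14918.100476, averaged 22.1 FPKM in control and 5.92 FPKM in cold. CAN63173.1, a grapevine protein whose Swiss-Prot match is NUTCRACKER, was at 151, 169 and 157 in control and 33.5, 41.4 and 47.5 in cold. Its log2 fold change was -1.96 ± 0.17. XP_011099580.1 fell from 146 ± 22.3 to 58 ± 18.3 normalized CPM, a log2 fold change of -1.33 ± 0.24. The other that fell, a second SHOOT GRAVITROPISM 5-like match (XP_011073161.1, -0.71 ± 0.27), lost its call without control replicate 2 or 3 or any 1 cold library, at -0.75 to -0.58.

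Of the 9 IDD best matches tested and not called, the one with the most clusters was the JACKDAW-like XP_011070504.1. Its 18 clusters summed to 300.2, 295 and 276 normalized CPM in the control libraries and 369, 313 and 282 in the cold libraries, with overlap between the groups (log2 fold change 0.14 ± 0.11). Within it, Cluster-14918.34419 held 25.7% to 27% of the sum in control and 0.103% to 1.85% in cold, and fell, with 81.6, 85.4 and 78 normalized CPM in the control libraries and 0, 5.95 and 0 in the cold libraries. Its adjusted p was 0.0156 in edgeR's quasi-likelihood test, at a log2 fold change of -5.29 ± 1.21. The call was lost without any 1 control library, at -5.36 to -5.29, and the value was -9.32 without cold replicate 2 and -4.70 without cold replicate 3.

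**Figure D2:**
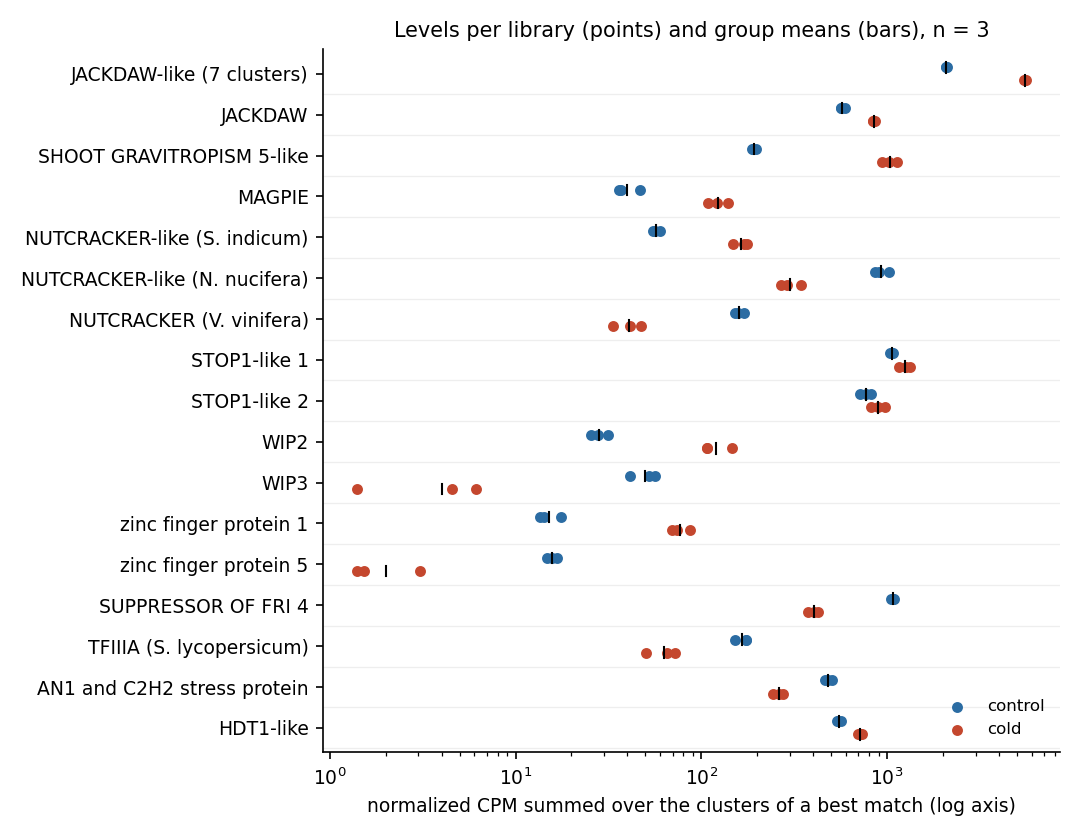
Normalized CPM summed by best match (horizontal log axis) in each control library (blue points) and each cold library (red points), with short bars at the group means, n = 3. SHOOT GRAVITROPISM 5-like, WIP2 and zinc finger protein 1 lie higher in all cold libraries, and WIP3, zinc finger protein 5 and SUPPRESSOR OF FRI 4 lie lower in all of them.

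STOP1 and its relatives switch on tolerance of protons and aluminium in Arabidopsis and rice. Under TMM, the best matches with the most counts showed small rises. The 9 clusters formed 4 best matches, of which 3 were called higher and 1 lower. The list's summed whole-library CPM went the other way, from 119 ± 2.03 to 110 ± 5.30, as did its summed FPKM, from 88.4 ± 0.937 to 82.0 ± 2.95 (SD, n = 3, exact permutation p = 0.1 for each). SENSITIVE TO PROTON RHIZOTOXICITY 1-like (XP_011097563.1) was at 1074, 1056 and 1037 normalized CPM in the control libraries and 1165, 1329.5 and 1258 in the cold libraries (log2 fold change 0.25 ± 0.05 (SE), adjusted p = 0.00387 in edgeR's quasi-likelihood test). The groups did not overlap, but with whole-library totals its change was -0.12. Of its clusters, Cluster-14918.137349 rose by 0.59 ± 0.14 on the log2 scale, a call lost without control replicate 2 or 3 or cold replicate 2, at 0.46 to 0.56, and with whole-library totals, at 0.36. Cluster-14918.85884, with more counts, was not called at -0.06 ± 0.07, and was called lower with whole-library totals, at -0.30. The value of XP_011097108.1 was 0.22 ± 0.08 under TMM and -0.14 under whole-library totals, and its call was lost without control replicate 1 or 2 or cold replicate 2 or 3, at 0.16 to 0.23. Both STOP1 homologs at low level moved more. XP_011089967.1 fell from 25.8 ± 4.01 to 8.4 ± 0.792 normalized CPM (log2 fold change -1.60 ± 0.39 (SE), adjusted p = 0.00673 in edgeR's quasi-likelihood test). CDP01470.1 was at 8.29, 7.51 and 10.3 in control and 73.1, 56.7 and 5.59 in cold, so that cold replicate 3 lay below all control libraries and the other cold libraries far above them. Its call was lost without any 1 control library or cold replicate 1 or 2, at 1.83 to 2.47, and with whole-library totals, at 1.99.

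WIP proteins, zinc fingers of plants that in Arabidopsis include regulators of seed coat colour and of the transmitting tract of the pistil, went in opposite directions. WIP2 (XP_011075201.1), the Arabidopsis NO TRANSMITTING TRACT, stood at 31.3, 27.8 and 25.3 normalized CPM in the control libraries and 107, 107 and 147 in the cold libraries. It rose in all 3 cold libraries (log2 fold change 2.09 ± 0.22 (SE), adjusted p = 5.85e-05 in edgeR's quasi-likelihood test), and 1 of its 2 clusters, Cluster-14918.29484, was called on its own. WIP3 (XP_011090357.1) had 41.4, 56.3 and 52.3 in control and 4.57, 6.13 and 1.4 in cold. Here the cold libraries were all near 0 (log2 fold change -3.61 ± 0.49 (SE), adjusted p = 0.000271 in edgeR's quasi-likelihood test). The other 2 of the 4 WIP best matches had too few counts to be tested.

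In the list of ZFP and GIS proteins, several of which act in trichome formation in Arabidopsis, 3 of 4 best matches were tested. Zinc finger protein 1 (XP_011073350.1) was at 17.5, 13.5 and 14.3 normalized CPM in the control libraries and 86.8, 73.6 and 69.8 in the cold libraries and rose without overlap (log2 fold change 2.34 ± 0.27 (SE), adjusted p = 0.000109 in edgeR's quasi-likelihood test). Cluster-14918.216358 held 81.9% to 100% of the sum in control and 90.4% to 97.1% in cold. Zinc finger protein 5 (XP_011087078.1), which in Arabidopsis promotes trichomes downstream of gibberellin and cytokinin, fell from 15.7 ± 0.949 to 2 ± 0.93 (log2 fold change -2.91 ± 0.57 (SE), adjusted p = 0.00209 in edgeR's quasi-likelihood test). A zinc finger protein 1-like match (XP_011082208.1) was at 35.9, 41.3 and 44.3 in control and 47.2, 38.3 and 54.5 in cold, with overlap, and was not called at 0.20 ± 0.26.

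SUPPRESSOR OF FRI 4, which in Arabidopsis is needed for FRIGIDA to raise the flowering repressor FLC, was lower in the cold leaves. The main best match (XP_011096842.1) had 1069, 1047 and 1090.3 normalized CPM in the control libraries and 376, 426 and 404 in the cold libraries. The lowest control library lay far above the highest cold library (log2 fold change -1.41 ± 0.06 (SE), adjusted p = 1.67e-07 in edgeR's quasi-likelihood test). Cluster-14918.128766 held 88.1% to 93.5% of the sum in control and 98.1% to 100% in cold, and averaged 64 FPKM in control and 20.1 FPKM in cold. The other cluster, Cluster-14918.132301, was at 73.8, 92.7 and 139 in control and 0, 7.43 and 0 in cold (log2 fold change -5.31 ± 1.26 (SE), adjusted p = 0.0175 in edgeR's quasi-likelihood test). That smaller call was lost without control replicate 2 or 3, at -5.41 to -5.05, while the log2 fold change was -9.63 without cold replicate 2 and -4.71 without cold replicate 3. An Amborella match of the same name (XP_006878607.1) fell from 76.3 ± 16.5 to 37.9 ± 7.84 normalized CPM, a log2 fold change of -1.0 ± 0.26. A Nicotiana match (XP_009761830.1) was not called, at 0.58 ± 0.40, from 12.5 ± 1.56 to 18.7 ± 3.56 normalized CPM. So 2 of the 3 tested in the list of 4 were lower in cold.

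TFIIIA, the factor that starts transcription of 5S ribosomal RNA genes by RNA polymerase III and binds 5S RNA, had 20 clusters in 7 best matches. Of the 5 tested, 3 fell and none rose. The tomato match ABI85392.1 was at 173, 152 and 174 in control and 50.3, 72.1 and 65.6 in cold (log2 fold change -1.41 ± 0.17 (SE), adjusted p = 0.000127 in edgeR's quasi-likelihood test), with a wide gap between the groups. Its clusters are short, the longer of 389 bases, and summed to 75.6 ± 5.58 FPKM in control and 20.2 ± 3.01 FPKM in cold. TFIIIA truncated variant 1 of Nicotiana benthamiana (ACG60699.1) fell from 19.9 ± 4.34 to 3.99 ± 1.04 normalized CPM, and the 9 clusters matched to a red alga (XP_005711937.1) from 76.9 ± 4.36 to 31.4 ± 9.09. The match with the most counts, XP_011079244.1, was at 381, 440.2 and 378 in control and 416, 514 and 427 in cold and was not called (0.17 ± 0.10), nor was either of its 2 tested clusters, Cluster-14918.93380 (-0.22 ± 0.15) and Cluster-14918.128198 (0.83 ± 0.37). XP_011079245.1 was not called either (-0.28 ± 0.22), at 249, 204 and 230.4 in control and 232, 119.6 and 208 in cold, where cold replicate 2 stood apart from the other cold libraries. With whole-library totals XP_011079245.1 was called lower, at -0.65. Several best matches bear the name TFIIIA, and whether reads were split between them was not tested. The list's summed whole-library CPM went from 57.2 ± 1.12 to 36.6 ± 0.869 (SD, n = 3), exact permutation p = 0.1.

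A stress-associated protein with AN1 and C2H2 fingers (XP_011075237.1), of a family named for its induction by stresses in rice and Arabidopsis, was lower in cold. Its 5 clusters summed to 507, 462 and 479 normalized CPM in the control libraries and 276, 262 and 244 in the cold libraries (log2 fold change -0.89 ± 0.07 (SE), adjusted p = 1.47e-05 in edgeR's quasi-likelihood test). The cluster with the most counts, Cluster-14918.190242, was not called (-0.28 ± 0.11, or -0.51 and called with whole-library totals), and its share of the sum stood at 47.6, 52.6 and 51.9% in control and 78.2, 91.2 and 84.2% in cold. Of the others, 3 were called lower. Cluster-14918.133915 had 144, 147 and 168 in control and 11.9, 10.4 and 9.54 in cold, and its log2 fold change was -3.83 ± 0.25. Cluster-14918.133916 had 47.6, 23.4 and 34.7 in control and 0, 0 and 0 in cold and was thus at least 24.4-fold lower when the cold group is put at a floor of 3 counts in all. The third, Cluster-14918.19409 (-3.47 ± 1.0), lost its call without any 1 control library or cold replicate 3, at -3.68 to -3.29, and was -4.79 without cold replicate 1.

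Among chromatin proteins, the HD2-type histone deacetylase HDT1-like (XP_011088838.1) was at 539, 564 and 542 in control and 734, 716 and 701 in cold (log2 fold change 0.39 ± 0.05 (SE), adjusted p = 0.000188 in edgeR's quasi-likelihood test), but with whole-library totals the change was 0.02 and not called. Its main cluster, Cluster-14918.111614, was called at 0.24 ± 0.06 in edgeR's fit by cluster, a call lost without any 1 control library or cold replicate 1, at 0.16 to 0.22, and with whole-library totals, at 0.0036. Limma on log2(FPKM + 1) gave -0.0135. The jumonji demethylases ELF6 and REF6, which in Arabidopsis remove methyl groups from histone H3 and take part in flowering time control, were not called. The 11 clusters of ELF6 (XP_011084321.1) summed to 554, 473 and 468 in control and 457, 549 and 568 in cold, with overlap (log2 fold change 0.08 ± 0.10, -0.29 and called lower with whole-library totals). Its single clusters varied widely between libraries of the same group, as did Cluster-14918.158777, at 139.8, 4.03 and 0 in control and 44.6, 242 and 0 in cold. The called cluster of this match, Cluster-14918.25014 (2.41 ± 0.75), lost its call without any 1 control library or cold replicate 1 or 3, at 1.91 to 2.79, and with whole-library totals, at 2.17. The 1 cluster of REF6 (XP_011072922.1) was at 126, 91.6 and 120.4 in control and 77.7, 99.7 and 101 in cold (-0.28 ± 0.19), and was called lower with whole-library totals, at -0.64. MYST-like histone acetyltransferase 2 (XP_011074888.1) was at 545, 614 and 477 in control and 576, 639 and 646 in cold and was not called (0.19 ± 0.10). It was at 0.27 and called without control replicate 2, and at -0.18 and not called with whole-library totals.

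Among RNA processing proteins, polyadenylation and cleavage factor homolog 4 (XP_011074350.1), which acts at the 3′ end of messenger RNAs, was lower. Its values were 162, 169 and 151 in control and 108, 99.7 and 47.5 in cold, so that every cold library lay below the control ones (log2 fold change -0.92 ± 0.27 (SE), adjusted p = 0.0153 in edgeR's quasi-likelihood test). As a single cluster in the fit by cluster, Cluster-14918.178779 was not called, at -1.05 ± 0.34, though it was called at -0.76 without cold replicate 3 and at -1.28 with whole-library totals. A second match of the same name (XP_011074351.1) had reads in 3 libraries only, 64.5, 55.6 and 0 in control and 0, 0 and 58.6 in cold, and its name differs from the first only in the isoform. The other 2 lists had 1 cluster each and were not tested. Cluster-22213.0, whose Swiss-Prot match is the floral regulator SUPERMAN, had 0, 4 and 4 counts in control and 0 in each cold library. Cluster-3853.0, with an oomycete best match and the ribosome biogenesis factor ZNF622 as Swiss-Prot match, had 0, 2 and 0 counts in control and 6, 8 and 6 in cold.

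**Figure D3:**
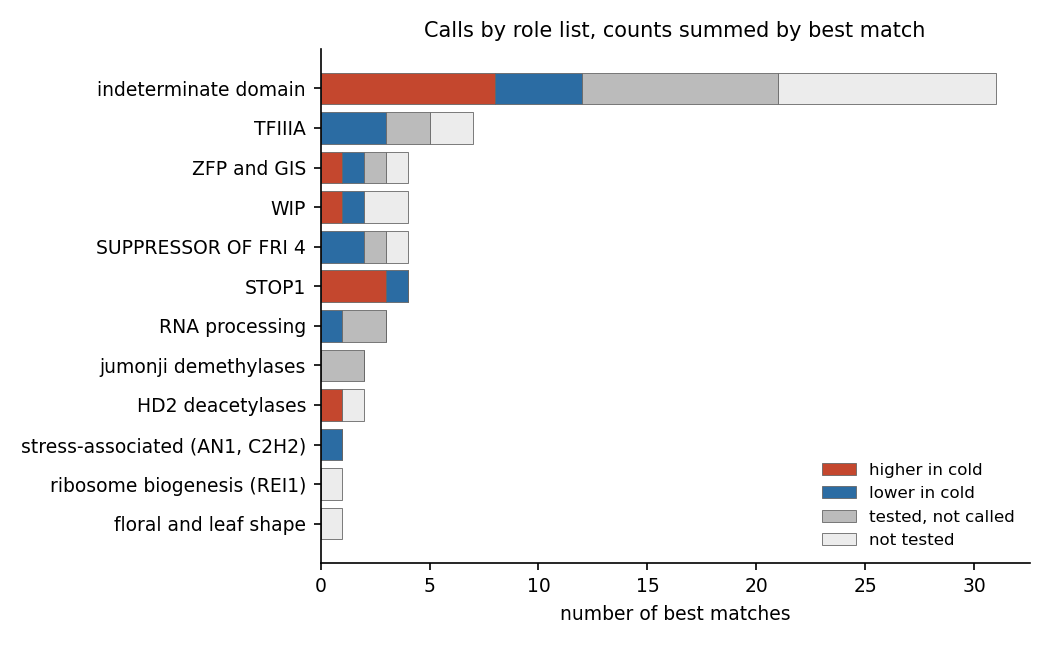
Number of best matches (horizontal axis) in each role list that were higher in cold, lower in cold, tested and not called, or not tested. The IDD list has 8 higher and 4 lower of 31, the TFIIIA list 3 lower of 7 and the SUPPRESSOR OF FRI 4 list 2 lower of 4.

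Outside the role lists stood 225 best matches or lone clusters. Of the 83 tested, 22 rose and 23 fell, beside 34.6% and 37.7% of all best matches tested. Several of those outside the lists were named for enzymes or chaperones that carry a finger beside another domain. The table lists a C2H2 finger beside the active site motif in phospholipase D alpha 1 (XP_011073436.1), which makes phosphatidic acid from membrane lipids. It was at 1112, 1109 and 1051 normalized CPM in the control libraries and 1109, 1291 and 1369.8 in the cold libraries. The groups overlapped, and the call (log2 fold change 0.21 ± 0.08 (SE), adjusted p = 0.0391 in edgeR's quasi-likelihood test) was lost without any 1 control library or cold replicate 2 or 3, at 0.14 to 0.21. With whole-library totals the value was -0.16. Diacylglycerol kinase 1 (XP_011087315.1), which makes phosphatidic acid from diacylglycerol and for which the table lists a C1 domain and no C2H2 domain, rose. Its sums were 233, 259.9 and 235 in control and 501, 501 and 491 in cold (log2 fold change 1.03 ± 0.07 (SE), adjusted p = 3.57e-06 in edgeR's quasi-likelihood test), both of its clusters were called higher, and whole-library totals gave 0.67.

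A methyltransferase of chloroplast type, At2g41040 of Erythranthe (XP_012840295.1), was at 245, 254 and 224 in control and 416, 471 and 482 in cold (log2 fold change 0.92 ± 0.09 (SE), adjusted p = 2.78e-05 in edgeR's quasi-likelihood test), without overlap. Chromatin assembly factor 1 subunit A (XP_011073802.1), named for the histone chaperone that follows DNA replication, had 1482, 1603 and 1479.9 in control and 1700, 1632 and 1645 in cold. Its Swiss-Prot match is a human UBX domain protein, so the name is uncertain. The log2 fold change was 0.12 ± 0.04, -0.24 and called lower with whole-library totals, and the first call was lost without control replicate 1 or 3 or cold replicate 1 or 3, at 0.09 to 0.13. Its main cluster, Cluster-14918.99112, was the third by mean FPKM of all members, at 62.8 FPKM in control and 51.7 FPKM in cold, and was not called at -0.03 ± 0.06, but was called at -0.27 with whole-library totals. Its other cluster, Cluster-14918.126758, was at 3.88, 0 and 11 normalized CPM in the control libraries and 29.8, 26.8 and 51.8 in the cold libraries and was not called either. A barley protein matched to the human zinc finger protein 391 (BAK05473.1) rose from 439 ± 8.02 to 618 ± 36.6, a log2 fold change of 0.49 ± 0.06 that was 0.13 and not called with whole-library totals. The uncharacterized zinc finger protein At4g06634 (XP_011092328.1) fell from 465 ± 27.8 to 202 ± 28.9 over 9 clusters (log2 fold change -1.20 ± 0.11 (SE), adjusted p = 2.33e-05 in edgeR's quasi-likelihood test).

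Uncharacterized sesame and monkeyflower proteins held several of the larger changes at moderate levels. LOC105956430 (XP_012835734.1), a single cluster, was at 223, 183 and 216 normalized CPM in the control libraries and 678, 690.1 and 695 in the cold libraries. The cold libraries were close to each other and far above control (log2 fold change 1.73 ± 0.08 (SE), adjusted p = 3.93e-07 in edgeR's quasi-likelihood test). LOC105155542 (XP_011069738.1) rose from 85.3 ± 15.1 to 283 ± 5.66. The uncharacterized LOC105161687 (XP_011077768.1), among the 6 best matches with the most counts, was at 735, 819 and 759 in control and 779.9, 669 and 762 in cold and was not called (-0.07 ± 0.07), but was called lower with whole-library totals, at -0.43. In the other direction, LOC105168590 (XP_011087030.1) had 227, 279 and 279 in control and 33.5, 15.3 and 12.6 in cold, a fall in each cold library (log2 fold change -3.68 ± 0.29 (SE), adjusted p = 9.54e-06 in edgeR's quasi-likelihood test). LOC105170049 (XP_011088941.1) fell from 308 ± 35.7 to 63.5 ± 9.35 (log2 fold change -2.28 ± 0.15 (SE), adjusted p = 3.19e-06 in edgeR's quasi-likelihood test), and LOC105175392 (XP_011096128.1) from 168 ± 26.7 to 29.2 ± 10.8 (log2 fold change -2.52 ± 0.27). Of the 5 clusters of LOC105170049, 3 were called lower. One of them, Cluster-14918.69453, had 54.4, 75.7 and 37.3 in control and 0, 0 and 0 in cold and was at least 38.7-fold lower.

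The largest rises by best match were at low levels. The Micromonas match XP_002508356.1 had 0, 0 and 2.38 normalized CPM in control and 59.4, 42.9 and 20.9 in cold. Its log2 fold change was 5.45 ± 0.98 (0.00132 adjusted p in edgeR's quasi-likelihood test), and 8.18 without control replicate 3, its only control library with reads. Its single cluster, Cluster-14918.216487, was called as well, but in the fit by cluster the call was lost without control replicate 1 or 2 or cold replicate 1 or 2, at 4.74 to 5.30, and the value was 8.10 without control replicate 3. The next were the Bathycoccus matches XP_007513533.1 (2.96 ± 0.60, from 3.38 ± 2.23 to 27.7 ± 3.88) and XP_007508450.1 (2.94 ± 0.55, from 9.62 ± 2.43 to 74.6 ± 52.2). The second was at 12, 9.77 and 7.13 in control and 45.7, 135 and 43.3 in cold, and without cold replicate 2, the highest, its value was 2.21. Its Cluster-14918.10953 (2.75 ± 0.77) lost its call without any 1 control library or cold replicate 1 or 2, at 2.06 to 3.20. A Guillardia match (XP_005836375.1, 2.94 ± 0.54), Cluster-36624.0 without a match (2.77 ± 0.48) and a Blastocystis match (XP_012896872.1, 2.50 ± 0.55) followed, all with control means under 10 normalized CPM.

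The largest falls by best match left few reads in the cold libraries. Cluster-14918.119430, without a match and 368 bases long, had 60.8, 66.9 and 51.5 normalized CPM in the control libraries and 0, 3.07 and 0 in the cold libraries in the fit of sums. Reads remained in 1 cold library only (log2 fold change -5.73 ± 0.75 (SE), adjusted p = 0.000216 in edgeR's quasi-likelihood test), and without that library, cold replicate 2, the value was -8.92. Cluster-34601.0 was at 91.2, 44.3 and 66.5 in control and 0, 0 and 12.6 in cold (log2 fold change -3.91 ± 0.96) and LOC105178863 (XP_011100723.1) at 43.3, 42.8 and 53.8 in control and 0, 0 and 9.77 in cold (-3.73 ± 0.94). Without cold replicate 3, the only cold library with reads, they were at -9.07 and -8.54. After WIP3 and LOC105168590, the last of the 6 was a BED finger protein of the RICESLEEPER type, derived from a transposase (XP_012851801.1), which fell from 22.6 ± 10.4 to 2.46 ± 0.824 (log2 fold change -3.13 ± 0.60 (SE), adjusted p = 0.00187 in edgeR's quasi-likelihood test).

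Clusters of one best match did not always move together. Of the 81 best matches with more than 1 cluster, 71 were tested as sums and 44 were called. In 19 of these 44 no single cluster was called. In 7 further best matches a cluster was called while the sum was not. Of the 69 called clusters, 57 had a sum called the same way, 11 a sum that was not called and 1 a sum called the other way. In 3 best matches clusters were called in both directions.

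One of the 3 was the uncharacterized sesame protein LOC105162016 (XP_011078217.1). Cluster-14918.11230 had 6.8, 4.03 and 5.08 normalized CPM in the control libraries and 283, 229 and 277 in the cold libraries. It held 3.55% to 6.25% of the sum in control and 81.9% to 82.3% in cold (log2 fold change 5.6 ± 0.28 (SE), adjusted p = 4.6e-05 in edgeR's quasi-likelihood test). Cluster-14918.178848 was at 102, 109.6 and 83.9 in control and 61, 50.5 and 61.3 in cold and was called lower (-0.77 ± 0.24), a call lost without any 1 control library or any 1 cold library, at -0.92 to -0.70. The sum rose from 97.4 ± 12.4 to 329 ± 35.2 (log2 fold change 1.76 ± 0.13 (SE), adjusted p = 8.16e-06 in edgeR's quasi-likelihood test). All counts of both clusters were whole numbers.

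In the Bathycoccus match XP_007515587.1 one cluster was called higher and the other lower. Cluster-14918.62306 had no count in control and 104, 106 and 84.5 normalized CPM in cold, at least 113-fold higher. Without control replicate 2 or 3 that bound was 72.2 or 74.2. Cluster-14918.107156 was at 196, 185 and 173 in control and 35.7, 28.2 and 58.6 in cold (log2 fold change -2.17 ± 0.32 (SE), adjusted p = 0.00327 in edgeR's quasi-likelihood test). The sum was at 186, 172 and 162 in control and 143, 138 and 147 in cold, lower in each cold library but not called (-0.28 ± 0.11), and it was called at -0.35 without control replicate 3 and at -0.64 with whole-library totals. Both clusters carried the same best match, and whether their reads could be told apart in counting was not tested.

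The third was ETL27235.1, a Phytophthora protein with the name of an enzyme of the shikimate pathway, which leads to the aromatic amino acids. Its 4 clusters summed to 314, 297 and 284 in control and 282, 293 and 353 in cold, with overlap and no call (0.05 ± 0.10, -0.31 and called lower with whole-library totals). Cluster-14918.65658 rose, with 8.74, 12.1 and 5.93 in control and 207, 223 and 248 in cold (log2 fold change 4.64 ± 0.33 (SE), adjusted p = 0.000169 in edgeR's quasi-likelihood test). Cluster-14918.116505 fell, with 263, 245 and 256 in control and 68.5, 60.9 and 96.8 in cold (log2 fold change -1.75 ± 0.22). Cluster-14918.70704 had 59.2, 51.6 and 19.5 in control and 0, 0 and 0 in cold and was at least 30.1-fold lower. The bounds of the 3 clusters at 0 in cold were 25.0, 19.5 and 15.8 without cold replicate 3 for Cluster-14918.69453, Cluster-14918.70704 and Cluster-14918.133916. A further case of a cluster with a large change in a sum that was not called was Cluster-5553.1 of the Bathycoccus match XP_007513606.1. It had 0, 0.81 and 0.85 normalized CPM in control and 31.3, 26.8 and 23.2 in cold (log2 fold change 5.27 ± 0.82 (SE), adjusted p = 0.00376 in edgeR's quasi-likelihood test), while the 7 clusters summed to 67.2, 68.4 and 87.1 in control and 89.9, 64.4 and 68.4 in cold.

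**Figure D4:**
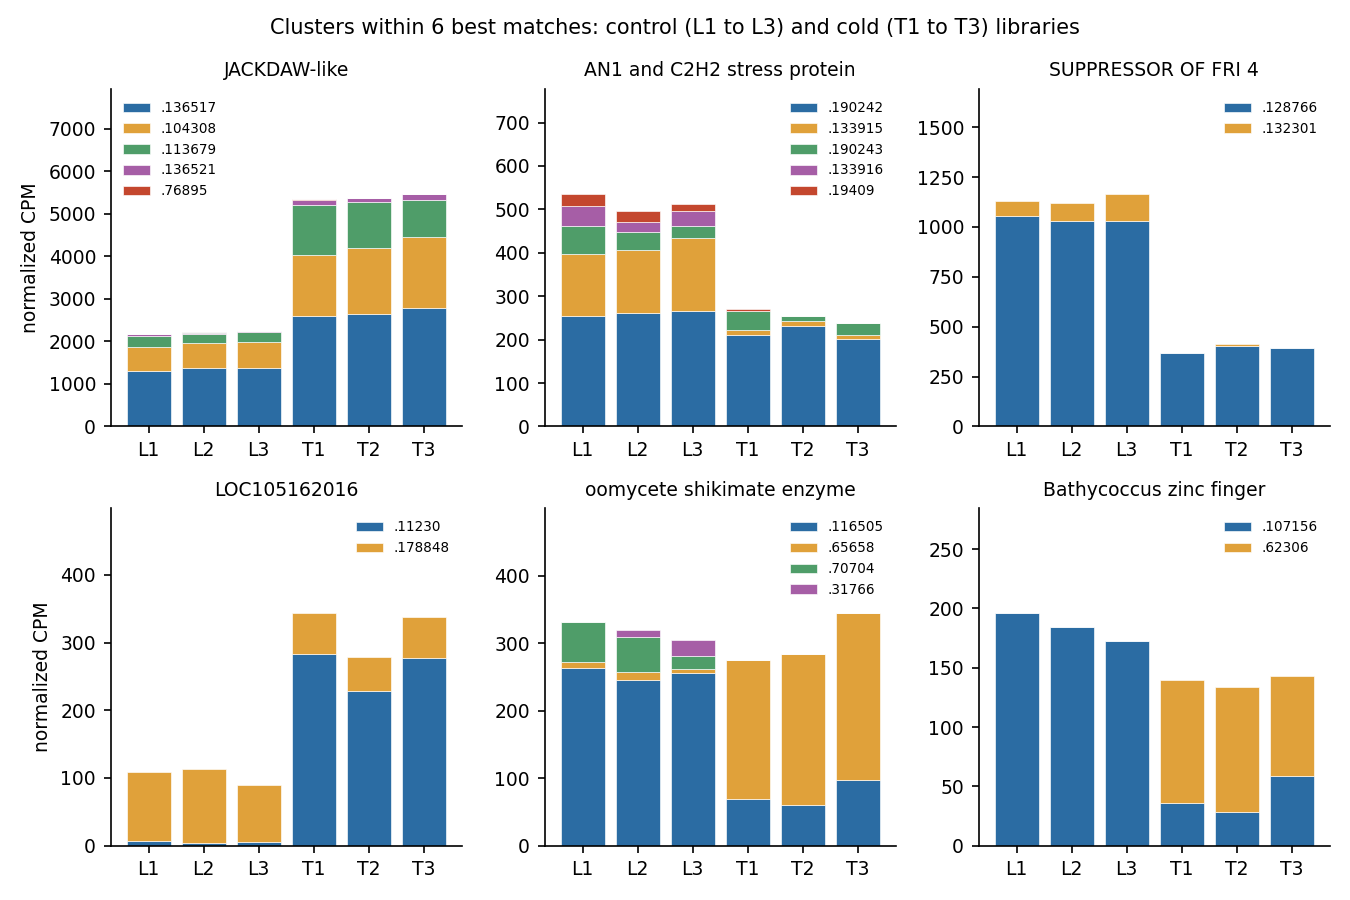
Stacked normalized CPM of each cluster (colours, legends give the end of the cluster number in Cluster-14918) within 6 best matches, in control libraries L1 to L3 and cold libraries T1 to T3. The 4 called JACKDAW-like clusters are all higher in cold, whereas in LOC105162016, the shikimate enzyme match and the Bathycoccus match a different cluster holds most of the counts in cold than in control.

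Many members had their best match outside the land plants. Algal proteins were the best match of 100 of the 528 (18.9%), beside 3.15% of all 9740 clusters, and oomycete proteins of 52 (9.85%), beside 1.24%. A further 119 (22.5%, beside 5.62%) had no best match. Sesame, the usual best match of the table with 64.3% of all clusters, matched 168 (31.8%). Bathycoccus prasinos, a marine green alga, alone matched 60. Only the closest database protein is named by a match, and whether reads came from Verbena or from another organism on the leaves was not tested.

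Members with an oomycete best match were long, with a median of 2529 bases, beside 1450 for those with a land plant match and 727 for those without a match. Their summed whole-library CPM stood at 134, 131 and 131 in control and 97.9, 82.8 and 89.9 in cold. Every cold library lay below every control library (exact permutation p = 0.1), as it did for the algal group, at 90.6, 87.4 and 86 in control and 73.7, 77.8 and 63.1 in cold. For land plant matches the sums went from 1292 ± 16.7 to 1213 ± 19.7 (SD, n = 3), and for members without a match from 151 ± 2.76 to 141 ± 1.79, each with an exact permutation p of 0.1. The 5 clusters matched to Blastocystis, a protist, were at 2.78, 2.11 and 1.10 in control and 2.21, 3.63 and 1.47 in cold. The other 4 sums were lower in cold on this scale, as was the sum over all members, from 1666 ± 19.4 to 1518 ± 14, and the share of the whole table in the library was also lower. Summed FPKM gave the opposite order for the algal group, 38.7, 40.2 and 33.6 in control and 52.4, 55.8 and 40.01 in cold, with 1 cold library below the highest control library (exact permutation p = 0.2), a scale on which short clusters weigh more.

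By best match, 10 of 20 oomycete matches were tested, of which 3 fell and 0 rose, with a median log2 fold change of -0.21. Of 33 algal matches 17 were tested, with 6 higher, 4 lower and a median of 0.00, and of 114 land plant matches 78 were tested, with 24 higher, 26 lower and a median of -0.17. Over all best matches tested in the table, 34.6% were higher and 37.7% lower, with a median of -0.08. Of the 119 clusters without a match only 21 were tested, with 5 higher and 4 lower in the fit of sums. One of them, Cluster-14918.120117, 420 bases long, had the highest mean FPKM of all members. It averaged 232 FPKM in control and 184 FPKM in cold, and was not called in edgeR's quasi-likelihood test (0.01 ± 0.09 by cluster), while limma on log2(FPKM + 1) gave -0.34. In the fit of sums, where it stood alone, it was called higher at 0.21 without cold replicate 3 and lower at -0.23 with whole-library totals.

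**Figure D5:**
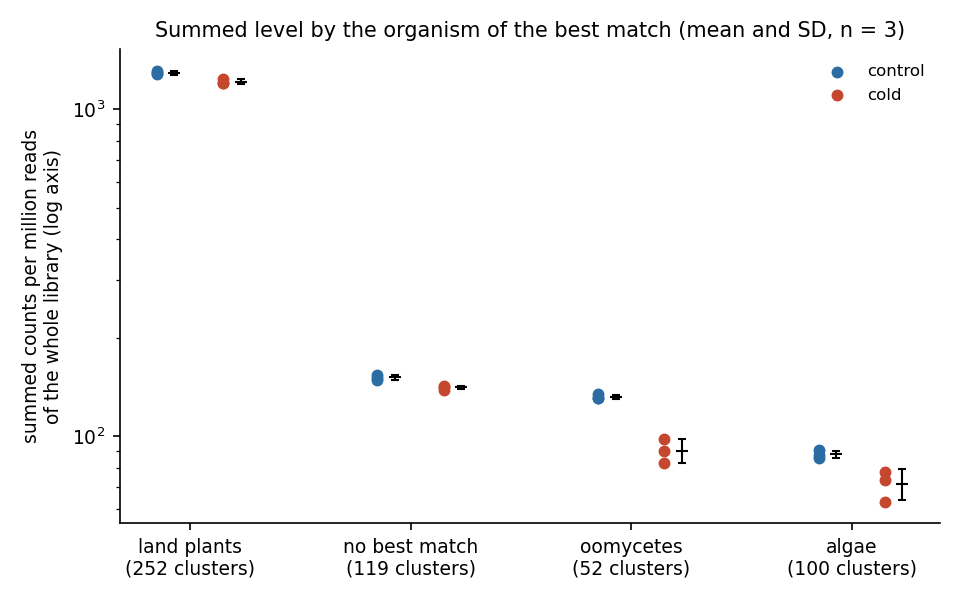
Summed whole-library CPM (vertical log axis) of the members grouped by the organism of the best match, with points for libraries and bars for the mean and SD, n = 3. The cold points lie below the control points in each of the 4 groups, and the gap is widest for the oomycete matches.

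The 33 ZAT-type clusters set aside by the rule stood at a summed whole-library CPM of 165, 169 and 160.1 in control and 544, 577 and 573 in cold. That sum was higher in every cold library, while that of the 528 members was lower (exact permutation p = 0.1 for each). Of the ZAT-type best matches 15 were tested, with 6 higher, 6 lower and a median log2 fold change of 0.37, beside -0.15 for the members. The difference between the 2 sets was not tested. On the FPKM scale the ZAT-type sum went the other way, from 1515 ± 58.2 in control to 564 ± 51.1 in cold, while that of the members went from 1641 ± 33.3 to 1398 ± 55.7 (SD, n = 3, exact permutation p = 0.1 for each). Among the members, 38.3% of the clusters were tested, beside 72.7% of the ZAT-type and 51.4% of all clusters, and the median normalized CPM was 7.23, beside 53.5 and 13.5.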

How the data were processed

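The RNA of 3 control and 3 cold-treated leaf samples was sequenced by the authors, who assembled transcripts into clusters and deposited, for clusters of transcription regulators only, estimated counts (with fractions) and FPKM per library. The submitters' processing notes name Bowtie2 2.0.6 and TopHat2 2.0.12 without a role, and which assembler and counter were run is not given in the sources used here. Deposited log2 ratios and q values of the authors' own comparison were not used. The table held 10251 lines, reduced to 9740 clusters by their identifier.

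Estimated counts were rounded and tested over the whole table with edgeR 4.0.16 in R 4.3.3 (filterByExpr with a minimum count of 10, TMM factors, quasi-likelihood test, Benjamini-Hochberg adjusted p under 0.05), by cluster (5004 tested) and summed by NR best match (2297 tested). Levels are normalized CPM from this fit. Whole-library totals were obtained from counts, FPKM and length over clusters of at least 1000 bases and 5 FPKM. Sums over groups were compared with the exact two-sided permutation test (scipy 1.17.1). Where a group had no count, a bound was set with a floor of 3 counts over the group, which covers counting error only. DESeq2 1.42.0, limma 3.58.1 on log2(FPKM + 1) and log2(FPKM + 0.1), other scalings, filters and thresholds, a replicate block and the omission of each library were alternatives, and members matched to land plants alone were one added after the data were seen. The 3 samples per group are labelled biological replicates, and edgeR's p-values set the difference between the groups against the spread between replicates.

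Members named were the 6 clusters and the 6 best matches that changed most in either direction of those called without overlap and of a mean of at least 1 normalized CPM, the 6 best matches with the highest sums, the 3 clusters with the highest mean FPKM, the top best match of each role list with its clusters, and up to 5 best matches with clusters called in both directions. Other best matches and clusters were named after their values were seen. Role lists were made by searching annotation names ("suppressor of fri" in place of "frigida", and ZFP names in Arabidopsis Swiss-Prot entries only). The members and lists were chosen with earlier results of these data known. The libraries differed from each other by more than counting error and none were identical. No cluster sequence was used here.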

Additional observations from a re-analysis of the deposited data

How the results depend on the processing

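Counts of called clusters depended on the settings more than those of called best matches. Against 31 clusters higher and 38 lower, the fit with a replicate block gave 17 and 17, an adjusted p under 0.01 gave 18 and 20, limma on log2(FPKM + 1) and log2(FPKM + 0.1) called 72 and 65 lower, and members matched to land plants alone, a setting chosen after seeing the data, held 20 higher. Against 36 best matches higher and 37 lower, whole-library totals called 59 lower and a log2 fold change of at least 1 left 23 lower. The replicate block gave 30 and 32 best matches, but same-numbered libraries did not deviate together (correlations of -0.03, -0.01 and -0.001 by cluster and -0.07, -0.01 and -0.001 by best match). With 3 libraries per group, a weak shared effect could be missed, so these values cannot decide whether the numbers pair the samples. Without 1 library at a time, 22 to 37 clusters were higher and 26 to 43 lower, and 33 to 44 best matches were higher and 32 to 37 lower. RLE factors, DESeq2, either other filter and the wider memberships kept all 4 counts within 1.5 times. Of the best matches named by rule and called on either scale, whole-library totals turned the log2 fold change of ETL27235.1 (-0.31), XP_011073436.1 (-0.16), XP_011073802.1 (-0.24), XP_011084321.1 (-0.29), XP_011097108.1 (-0.14) and XP_011097563.1 (-0.12), in each case by the general shift of the table on that scale. Others called on neither scale turned as well, such as XP_011074888.1 (-0.18), XP_011079244.1 (-0.19), XP_011070504.1 (-0.22) and XP_011082208.1 (-0.16). Both limma settings turned Cluster-14918.111614 (-0.0135 and -0.0139) and Cluster-14918.120117 (-0.34 and -0.34), of which the cause was not tested. Clusters with few counts were not tested (326 of 528 members), and with 3 libraries per group a single value cannot reach an exact p under 0.1.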
